A study of Saccharomyces cerevisiae with 23 samples.

Results

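Pre-mRNA splicing in log phase was compared between a nam8 deletion strain of Saccharomyces cerevisiae, called nam8D, and wild type. The comparison took every log-phase library that the labels call nam8D, WTa or WTb, which makes 8 of the 23 libraries of the study. These were 3 nam8D libraries, 2 libraries of the wild-type set WTa (replicates 2 and 3) and 3 libraries of the wild-type set WTb. Wild type without a set name means these 5 libraries, with both sets given equal weight in a fold change. All strains were of the BY background and grew to log phase in minimal medium with 2% glucose, and no further allele is named. The sources used here do not state how WTa and WTb differ. The labels give the nam8D and WTb libraries the same strain names, replicate by replicate, and the WTa libraries another name. Those names recur across genotypes, so they were not taken as clones. No label states that replicates came from separate cultures, so the spread between libraries that p-values measure may be technical. In the main fits of introns it is the spread within groups, shared over all 23 libraries. The difference between WTa and WTb is not part of that spread, also where nam8D is set against pooled wild type. The remaining libraries of the study hold a mud1D mutant and cultures of 48 h.

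Nam8 is an RNA-binding protein of the yeast U1 small nuclear ribonucleoprotein (U1 snRNP), the particle that first recognises the 5' splice site of an intron. It contacts the intron just downstream of that site, where uridine-rich stretches favour its binding, and it can be deleted from vegetative cells. In meiosis it acts with the splicing factor Mer1 on a small set of meiotic introns, REC107 among them. In multiplexed primer extension sequencing a primer beside each chosen intron starts the reverse transcription, so that a read shows whether the RNA had lost the intron (mature) or still held it (premature). An intron's premature share is here its premature counts as a percentage of all its counts, and the splicing change reported here is the difference in log2 of premature over mature, nam8D minus wild type. A positive value means less spliced RNA relative to unspliced RNA in nam8D. NAM8 is not among the listed introns, so the loss of its own transcript was not checked.

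The introns of MRK1, REC107, CQD1, LSM7, CMC4 and SAR1 are printed whole because they had the clearest increases in premature RNA in nam8D, or carry a departure from the usual 5' splice site. Capitals mark the first 6 bases, which pair with U1 in the consensus GTATGT, and the branch site TACTAAC where it is present.
MRK1: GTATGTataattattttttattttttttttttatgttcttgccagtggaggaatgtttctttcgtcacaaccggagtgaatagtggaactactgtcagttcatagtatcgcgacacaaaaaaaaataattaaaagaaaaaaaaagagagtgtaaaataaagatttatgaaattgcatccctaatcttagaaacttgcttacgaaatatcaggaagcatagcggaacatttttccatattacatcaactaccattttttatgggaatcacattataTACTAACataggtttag
REC107: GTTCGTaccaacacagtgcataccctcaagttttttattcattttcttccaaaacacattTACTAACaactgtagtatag
CQD1: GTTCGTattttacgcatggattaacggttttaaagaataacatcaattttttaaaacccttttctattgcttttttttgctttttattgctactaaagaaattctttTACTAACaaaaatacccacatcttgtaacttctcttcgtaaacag
LSM7: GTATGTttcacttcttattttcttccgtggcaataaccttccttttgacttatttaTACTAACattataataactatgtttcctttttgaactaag
CMC4: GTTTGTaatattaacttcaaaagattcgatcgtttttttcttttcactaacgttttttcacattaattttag
SAR1: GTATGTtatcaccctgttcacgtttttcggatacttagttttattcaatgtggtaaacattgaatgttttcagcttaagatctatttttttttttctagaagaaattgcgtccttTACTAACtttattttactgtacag
On RefSeq assembly R64 these lie at chrIV:314045-314336 (MRK1, minus strand), chrX:469184-469263 (REC107, minus strand), chrXVI:345445-345596 (CQD1, minus strand), chrXIV:350958-351053 (LSM7, plus strand), chrXIII:652776-652847 (CMC4, minus strand) and chrXVI:138726-138864 (SAR1, plus strand). Each is an annotated intron of the gene it is named for. Among bases 7 to 36 of the intron, the stretch after the 5' splice site, MRK1 has 23 thymines of 30, REC107 9, CQD1 11, LSM7 14, CMC4 12 and SAR1 13. The median over the 223 tested introns with 1 annotated match was 10.

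The first 60 bases of 5 further introns are printed for contrast, 2 with higher and 3 with lower premature over mature in nam8D, in the same notation.
PSP2: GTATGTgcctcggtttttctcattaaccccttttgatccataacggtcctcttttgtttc
ASC1: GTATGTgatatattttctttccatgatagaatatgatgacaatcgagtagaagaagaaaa
MND1: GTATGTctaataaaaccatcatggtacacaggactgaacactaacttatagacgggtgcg
GIM5: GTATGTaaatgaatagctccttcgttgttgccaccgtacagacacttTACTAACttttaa
SEC17: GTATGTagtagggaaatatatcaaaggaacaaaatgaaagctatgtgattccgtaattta
PSP2 lies at chrXIII:236592-236953 on the plus strand and ASC1 at chrXIII:499879-500151 on the minus strand, each with 13 thymines among bases 7 to 36. MND1 lies at chrVII:157200-157282 on the minus strand with 6, GIM5 at chrXIII:82291-82373 on the plus strand with 9, and SEC17 at chrII:125155-125270 on the plus strand with 5. Against WTb alone none of these 3 lower introns had an adjusted p under 0.05 by edgeR's quasi-likelihood test. ERD2, also lower in nam8D than in pooled wild type, is not printed and has 13 thymines in that stretch.

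Library totals were 7033408, 6693650 and 7144846 counts in nam8D, against 12068685 and 8850455 in WTa and 7058989, 7228349 and 6874843 in WTb. The tables name 284 introns, and the 265 present in each of the 23 libraries with a mean of at least 20 counts were tested. Another 9 were listed everywhere except in WTa and were compared with WTb alone. Replicates differed by more than counting error, with a lowest chi-square per degree of freedom of 21.5, so none was a copy of another. Reads assigned to the mating-type gene HMRA1 were counted in every library, while introns of the meiosis list were read at a low level. Of the 14 introns of that list, 10 were listed in each nam8D library, 11 in each WTa library and 9, 11 and 11 in WTb. Those listed summed to 240, 227 and 250 counts scaled to a common library total (CPM) in nam8D, against 340 and 338 CPM in WTa and 195, 182 and 218 CPM in WTb. The defining meiotic introns of HFM1, AMA1 and SPO22 were not listed in any nam8D library. They were rarely listed in wild type too: HFM1 in no library, AMA1 in WTa replicate 2 alone, and SPO22 in WTa replicate 3 and WTb replicates 2 and 3.

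Splicing was shifted toward unspliced RNA at a minority of introns in nam8D, with the largest changes at MRK1, REC107, CQD1 and LSM7. Premature over mature was higher in nam8D than in wild type at 78 introns, 29.4% of the 265 tested, and lower at 19 (7.17%), in all 97 (36.6%), by edgeR's quasi-likelihood test at an adjusted p under 0.05. When each library was centred on its median intron, 77 introns (29.1%) were higher and 36 (13.6%) lower. The median change over all introns was 0.17 on the log2 scale and 0.10 after centring. In 40 of the higher introns (15.1% of those tested) all 3 nam8D libraries lay above all 5 wild-type libraries, and in 5 of the lower introns (1.89%) all 3 lay below. Without nam8D replicate 2 the number of lower introns was 12.

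The wild-type sets gave different counts. Against WTa, 100 introns were higher in nam8D (37.7%) and 35 lower (13.2%). Against WTb, 33 differed (12.5%), 31 higher (11.7%) and 2 lower (0.755%), which became 35 and 12 after centring and 50 and 9 in a fit of only the 8 log-phase libraries. The WTb libraries themselves differed from WTa at 126 introns (47.5%), 80 higher (30.2%) and 46 lower (17.4%), more than nam8D differed from WTb. Of the 78 introns higher than pooled wild type, 18 passed against both sets (6.79% of all tested), 53 against WTa alone, 5 against WTb alone and 2 against neither set. In 53 of the 78, WTb and WTa differed from each other by the same test, and in 7 the change against WTb had the opposite sign. None of the 19 lower introns passed against WTb by edgeR or by DESeq2, 2 of them were lower there at an unadjusted p under 0.05, and 8 had the opposite sign. After centring, 21 introns (7.92%) were higher against both sets, 17 of them among the 18, and 5 were lower. The 2 introns lower against WTb alone, named after their values were seen, were in UBC4, a ubiquitin-conjugating enzyme gene (-0.73, adjusted p 0.0443), and YIP3, a membrane protein gene of vesicle transport (-0.93, adjusted p 0.00952). Their number was 0 without nam8D replicate 2, 1 without nam8D replicate 3, either WTa library, or WTb replicate 2 or 3, and 4 without WTb replicate 1.

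**Figure D1:**
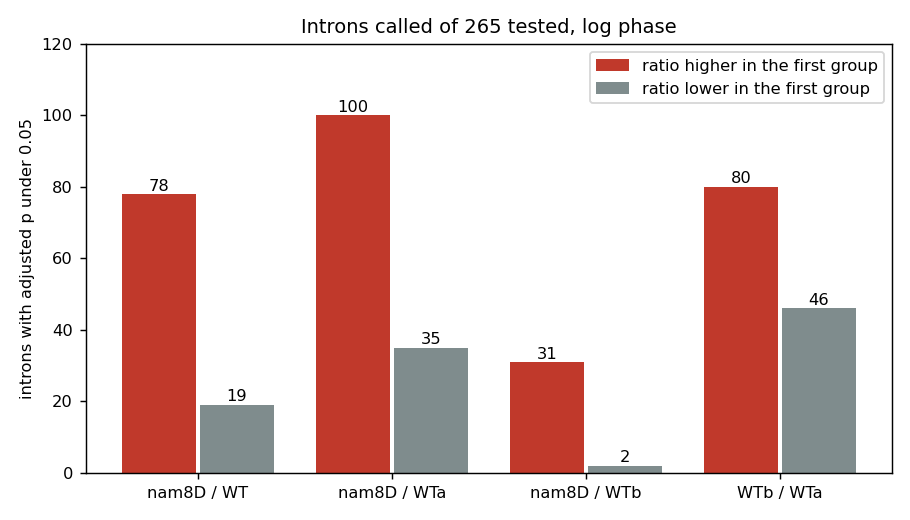
Number of introns with an adjusted p under 0.05 (y axis, count of 265) in 4 comparisons of log-phase groups (x axis), with red bars for a higher and grey bars for a lower premature to mature ratio in the first-named group. Against WTb 31 introns were higher and 2 lower in nam8D, while WTb differed from WTa at 80 and 46.

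Over a whole library the shift was small. The median intron had a premature share of 4.37% ± 0.235 in nam8D (SD, n = 3) and 4.18% ± 0.121 in wild type (SD, n = 5), with an exact two-sided permutation p of 0.179 (0.214 adjusted over 4 measures). The median ribosomal protein intron had 0.618% ± 0.0503 in nam8D and 0.546% ± 0.0125 in wild type, and the exact permutation p was 0.0357, the smallest that 3 against 5 libraries allow, or 0.0714 adjusted. The median intron of other genes had 11.5% ± 0.849 in nam8D and 10.6% ± 0.856 in wild type (exact permutation p 0.214). The sum of all premature counts made 2.18% ± 0.104 of the library in nam8D and 1.78% ± 0.154 in wild type (exact permutation p 0.0357, adjusted 0.0714). For that pooled share WTa averaged 1.61% and WTb 1.89%. None of the 4 measures passed after adjustment.

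MRK1, which encodes a protein kinase of the glycogen synthase kinase 3 family, had the largest increase. Its premature share was 25.1%, 27.3% and 31.3% in nam8D, against 4.27% and 5.46% in WTa and 5.15%, 5.29% and 6.20% in WTb. The nam8D libraries lay far above all wild-type libraries, which overlapped each other. The log2 change was 2.82 ± 0.20 (SE, adjusted p 1.67e-13), with 2.94 against WTa and 2.71 against WTb. Mature counts were 280, 328 and 230 in nam8D, against 2581 and 1627 in WTa and 589, 591 and 560 in WTb, so the total level of this target also differed between the wild-type sets.

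REC107, whose product is needed for meiotic recombination and whose intron is a known Mer1 and Nam8 target, was mostly unspliced in every library. Its premature share was 97.5%, 96.4% and 97.9% in nam8D, against 85.1% and 82.5% in WTa and 86.9%, 91.6% and 89.9% in WTb. The groups did not overlap, and the remaining spliced RNA was lowest in nam8D, with 8, 12 and 8 mature counts against 137 and 109 in WTa and 45, 26 and 35 in WTb. The log2 change was 2.41 ± 0.28 (SE, adjusted p 3.40e-08), 2.75 against WTa and 2.06 against WTb. These few mature counts limit its precision.

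CQD1, a mitochondrial gene of coenzyme Q distribution, had premature shares of 33.5%, 31.7% and 35.8% in nam8D, against 13.9% and 16.8% in WTa and 11%, 15.2% and 14.7% in WTb. All nam8D libraries were about alike and above all others. Its change was 1.59 ± 0.20 (SE, adjusted p 7.00e-08), with 1.49 against WTa and 1.68 against WTb. LSM7, a subunit of the Lsm ring that binds U6 RNA and takes part in mRNA decay, had shares of 3.13%, 3.48% and 3.43% in nam8D, against 0.952% and 0.671% in WTa and 1.57%, 1.70% and 1.74% in WTb. The nam8D libraries were highest and WTb lay between nam8D and WTa. Its change was 1.54 ± 0.19 (SE, adjusted p 7.00e-08), 2.05 against WTa and 1.02 against WTb.

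CMC4, a mitochondrial intermembrane space protein gene, had premature shares of 69.3%, 69.5% and 74.2% in nam8D, against 44.4% and 44.9% in WTa and 56.5%, 55.8% and 58.9% in WTb. The same order of groups held for ASC1, the yeast RACK1 homologue of the small ribosomal subunit, with 1.53%, 1.48% and 2.16% in nam8D, against 0.476% and 0.534% in WTa and 1.07%, 1.08% and 0.980% in WTb. In both introns nam8D was highest and WTa lowest, with no overlap between the groups. The changes were 1.24 ± 0.10 for CMC4 and 1.25 ± 0.15 for ASC1 (SE, adjusted p 2.20e-11 and 3.54e-08), and WTb alone gave 0.88 and 0.73.

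SUN4, a cell wall gene of the SUN family, had premature shares of 2.99%, 2.96% and 2.47% in nam8D, against 1.21% and 0.941% in WTa and 1.18%, 1.5% and 1.46% in WTb. Here the wild-type sets overlapped and all nam8D libraries lay above them. The change was 1.21 ± 0.19 (SE, adjusted p 6.46e-06). SUS1, a subunit of the SAGA and TREX-2 complexes, has 2 introns, and its intron 1 as the tables number it had shares of 50.5%, 50.5% and 50.8% in nam8D, against 30.2% and 29.5% in WTa and 36.6%, 36.2% and 36.8% in WTb. Replicates were tight and the 3 groups were separate. The change was 1.05 ± 0.10 (SE, adjusted p 1.16e-09), with 0.83 against WTb. SUS1 intron 2 passed against pooled wild type (0.74, adjusted p 7.26e-06) but had 0.25 against WTb (adjusted p 0.254).

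RPS22B, a small-subunit ribosomal protein gene that hosts a small nucleolar RNA (snoRNA), also has 2 introns. Intron 2 had premature shares of 12.5%, 12.3% and 11.9% in nam8D, against 5.31% and 5.32% in WTa and 6.92%, 7.44% and 6.97% in WTb. All nam8D libraries lay above the others, and the change was 1.09 ± 0.14 (SE, adjusted p 1.06e-07; 0.86 against WTb). RRT8, a gene linked to spore wall assembly, had 32.8%, 32.0% and 31.7% in nam8D, against 13.4% and 13.6% in WTa and 26.3%, 25.8% and 26.9% in WTb. The gap to WTa was far wider than that to WTb. RRT8 passed against pooled wild type at 1.01 ± 0.14 (SE, adjusted p 8.67e-07) and not against WTb (0.41, adjusted p 0.0879).

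**Figure D2:**
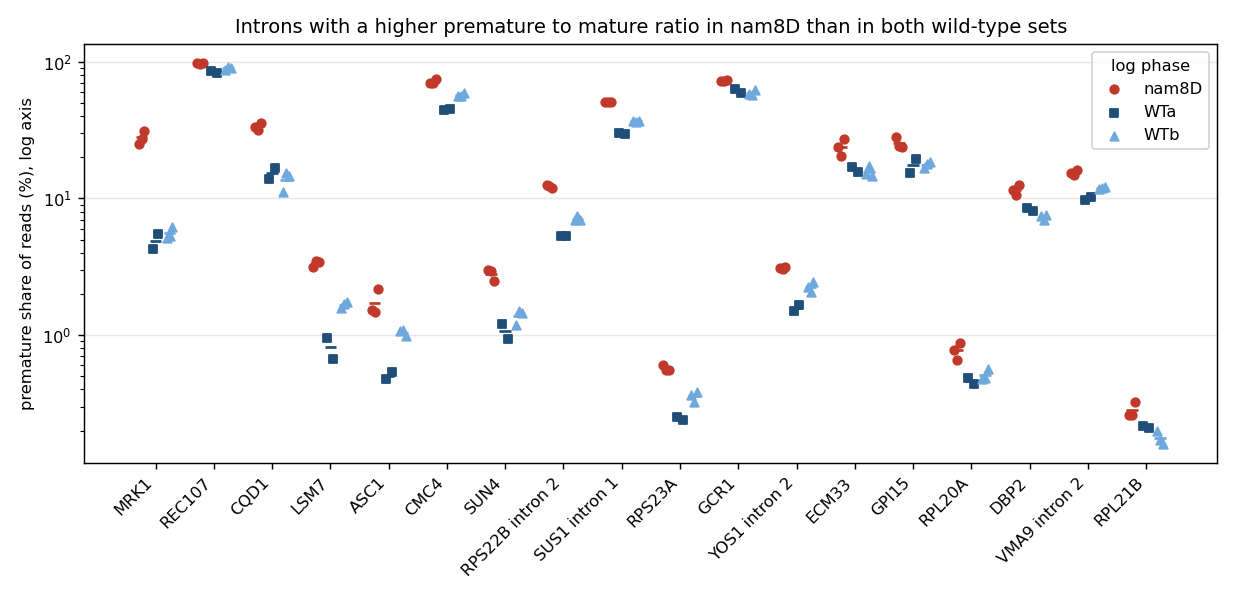
Premature share of reads in percent (y axis, log scale) for the 18 introns that passed against both wild-type sets (x axis, ordered by change), with 1 point per library and a line at the mean of each group. In all 18 the 3 nam8D points (circles) lie above the WTa (squares) and WTb (triangles) points, with RPL21B at the lowest shares and REC107 at the highest.

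Of the 18 introns higher against both sets, 9 have been described and 9 had changes between 0.54 and 0.95, several of them named after their values were seen. RPS23A, of the ribosomal decoding centre, had shares of 0.608%, 0.552% and 0.559% in nam8D, against 0.253% and 0.241% in WTa and 0.366%, 0.325% and 0.382% in WTb (0.95, adjusted p 7.00e-08). GCR1, the transcriptional activator of glycolytic genes, had 72.1%, 72.9% and 73.3% in nam8D, against 63.6% and 58.9% in WTa and 58.1%, 57.0% and 62.3% in WTb (0.82, adjusted p 7.57e-05). DBP2, an RNA helicase gene whose intron takes part in its own control, had 11.6%, 10.5% and 12.5% in nam8D, against 8.49% and 8.14% in WTa and 7.39%, 6.99% and 7.55% in WTb (0.62, adjusted p 0.00154). In each of these introns every nam8D library exceeded every wild-type library. The other 6 were YOS1 intron 2 of ER to Golgi transport (0.74), the cell wall gene ECM33 (0.72), GPI15 of glycosylphosphatidylinositol anchor synthesis (0.69), the ribosomal protein genes RPL20A (0.67) and RPL21B (0.54), and VMA9 intron 2 of the vacuolar ATPase (0.58). The sources used here do not state how reads were divided between the near-identical copies of RPS23, RPL20 and RPL21, and those 3 are uncertain.

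Several large changes against pooled wild type rested on WTa. YRA1, an mRNA export adaptor that limits its own splicing, had premature shares of 64.3%, 65.9% and 71.2% in nam8D, against 28.6% and 26.6% in WTa and 65.8%, 63.7% and 59.6% in WTb. The nam8D and WTb libraries overlapped, and the pooled change of 1.34 (adjusted p 5.76e-09) was 2.42 against WTa and 0.26 against WTb (adjusted p 0.338). COF1, encoding cofilin, had 9.23%, 8.28% and 8.83% in nam8D, against 3.39% and 3.20% in WTa and 8.29%, 7.57% and 7.75% in WTb. Its pooled change of 0.83 (adjusted p 7.24e-08) was 0.17 against WTb (adjusted p 0.392). HMRA1 intron 1, named for the silent mating-type copy, had 0.52 pooled (adjusted p 0.000427) and 0.25 against WTb (adjusted p 0.236). Whether its reads came from that copy is uncertain.

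The 9 introns not listed in WTa were set against WTb in a fit of 274 introns. SAR1, the GTPase of COPII vesicle coats, had premature shares of 4.37%, 3.77% and 4.6% in nam8D, against 1.52%, 1.46% and 1.73% in WTb. PSP2, an RNA-binding protein gene, had 17.1%, 18% and 17.4% in nam8D, against 7.27%, 7.02% and 5.85% in WTb. In neither intron did the groups overlap, and the changes were 1.48 ± 0.14 for SAR1 (SE, adjusted p 6.54e-10) and 1.56 ± 0.16 for PSP2 (SE, adjusted p 9.40e-09). EFM5 intron 2, in a lysine methyltransferase gene, rose by 1.12 (adjusted p 0.00128) and YNL050C by 0.51 (adjusted p 0.0146). The other 5 did not pass. Among the 265 introns, 11.7% were higher against WTb.

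Lower premature over mature passed with no overlap at 5 introns. MND1, a meiotic recombination gene, had premature shares of 28.1%, 34.9% and 29.3% in nam8D, against 65.3% and 73.3% in WTa and 39.0%, 35.7% and 56.6% in WTb. Its premature counts were 16, 15 and 12 in nam8D, and the change was -1.59 ± 0.36 (SE, adjusted p 0.000796; -0.88 and adjusted p 0.224 against WTb). GIM5, a prefoldin subunit that helps fold actin and tubulin, had 2.58%, 1.45% and 2.07% in nam8D, against 4.89% and 5.57% in WTa and 3.50%, 2.75% and 3.92% in WTb. The lowest WTb library was close to the highest nam8D library, and the change was -1.07 ± 0.24 (SE, adjusted p 0.000545; -0.75 and adjusted p 0.0641 against WTb). TAD3 intron 1, in a tRNA adenosine deaminase gene, had 9.82%, 10.04% and 11.7% in nam8D, against 24.6% and 31.3% in WTa and 12%, 12.1% and 12.5% in WTb. The nam8D and WTb libraries were near each other and WTa stood apart (-0.97 pooled, adjusted p 1.83e-05; -0.23 and adjusted p 0.487 against WTb). SEC17, encoding alpha-SNAP, changed by -0.65 (adjusted p 0.0349) and ERD2, the receptor that retains proteins in the endoplasmic reticulum, by -0.44 (adjusted p 0.00874), and neither passed against WTb. The SEC17 call was lost without any 1 of 7 libraries, with adjusted p between 0.0526 and 0.0965, and held only without WTb replicate 2 (0.0347).

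By gene group, the count of higher introns was read against 29.4% of all introns and a median change of 0.17. Of 103 ribosomal protein introns, the large subunit had 15 higher and 4 lower of 58 (median 0.15) and the small subunit 13 higher and 2 lower of 45 (median 0.17). After centring these were 13 and 9 in the large subunit and 13 and 3 in the small. In each subunit 2 introns passed against both sets. RNA processing and export genes had 5 higher and 0 lower of 12 (median 0.31), or 5 and 1 after centring, and LSM7, SUS1 intron 1 and DBP2 passed against both sets, while the Sm protein gene SMD2 had 0.10 and the cap-binding gene STO1 -0.25, neither passing. Cell wall and membrane lipid genes had 4 higher and 0 lower of 7 (median 0.50), with SUN4, ECM33 and GPI15 passing against both sets. SCS22, a membrane contact protein gene, passed against pooled wild type (0.50, adjusted p 0.00391) and had 0.16 against WTb.

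Signalling and cell cycle genes had 6 higher and 0 lower of 10 (median 0.46, and 0.24 against WTb), or 6 and 1 after centring. MRK1 and GCR1 passed against both sets, whereas the phosphatase genes PTC7 (0.81 pooled, 0.36 against WTb) and GLC7 (0.44 pooled, 0.03 against WTb) passed only when pooled or against WTa. Mitochondrial genes had 5 higher and 1 lower of 10 (median 0.35, but 0.05 against WTb), with CQD1 and CMC4 passing against both sets. Vesicle transport genes had 6 higher and 2 lower of 20 (median 0.15, and 0.06 against WTb) and cytoskeleton genes 3 and 2 of 11 (0.18, and 0.10 against WTb). The vesicle transport list as used also holds the mitochondrial gene ERV1 (0.21 pooled, 0.12 against WTb). Ubiquitin and proteasome genes had 2 and 0 of 8 (0.20, and 0.01 against WTb) and snoRNA host genes 5 and 0 of 11 (0.20, and 0.35 against WTb). Over all introns the median against WTb was 0.12. With centring the cytoskeleton genes had 3 higher and 4 lower. Genes of tRNA transcription, processing and modification had 0 higher and 2 lower of 6 (median -0.27, but 0.15 against WTb). Translation factor introns had 0 of 2 called, TEF4 at 0.20 (adjusted p 0.306), and mating cell type 1 higher of 2. UBC12, the Rub1-conjugating enzyme gene, passed at 0.32 (adjusted p 0.0360), and its call was lost without nam8D replicate 1 or 2, either WTa library or WTb replicate 3, with adjusted p between 0.0555 and 0.133, and after centring (0.120).

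Of 9 introns in genes that regulate their own splicing, 4 were higher and 0 lower (median 0.32), and DBP2 alone passed against both sets. RPL30, which binds its own transcript, had 0.369%, 0.400% and 0.453% in nam8D, against 0.355% and 0.354% in WTa and 0.319%, 0.361% and 0.247% in WTb. All nam8D libraries were higher by a narrow margin, and the change of 0.30 did not pass (adjusted p 0.0505; 0.41 and 0.0443 against WTb); it passed without nam8D replicate 1 (0.0425) or WTb replicate 2 (0.0236), with only the 8 log-phase libraries (0.0241) and with a mean count minimum of 100 (0.0496). RPS14B had 0.08 (adjusted p 0.630), with -0.09 against WTa. ACT1, the actin gene whose intron is the usual test substrate of splicing, had 4.40%, 3.81% and 3.93% in nam8D, against 4.20% and 5.07% in WTa and 3.51%, 3.93% and 4.07% in WTb. The groups overlapped fully (-0.06, adjusted p 0.718). MUD1, which encodes another U1 protein, was not in the test because it was not listed in all libraries. Its premature share was 6.60%, 6.04% and 7.25% in nam8D, against 4.14% and 4.35% in WTa and 4.33%, 4.65% and 5.48% in WTb, with no overlap.

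Among 7 tested meiotic introns, REC107 was higher, MND1 lower and the others not called. Of the meiotic Nam8 targets 2 were tested, REC107 and PCH2, and 1 of 2 was higher. PCH2, a meiotic checkpoint gene and with REC107 a meiotic Nam8 target, had premature shares of 98.4%, 91.1% and 98.3% in nam8D, against 93.5% and 93.0% in WTa and 87.2%, 96.0% and 88.1% in WTb. The groups overlapped, and mature counts were 1, 4 and 1 in nam8D. Its change was 1.23 ± 0.63 (SE, adjusted p 0.119), but it passed without nam8D replicate 2 (2.29, adjusted p 0.0298). It also passed with limma on log2 odds at a pseudocount of 0.5, before centring (1.17, adjusted p 0.0386) and after it (1.10, adjusted p 0.0396). With a pseudocount of 5 it did not pass. The part that the summed level of the meiosis list, which was highest in WTa, plays in the meiotic values was not tested. HAC1, with an intron cut out by Ire1 and a tRNA ligase rather than the spliceosome, was almost wholly premature in every library, with 7, 9 and 8 mature counts in nam8D (0.38, adjusted p 0.613; 1.07 against WTa and -0.32 against WTb).

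Sequence features were set beside the change for the 223 tested introns with 1 annotated match, of which 64 were higher, 14 lower and 13 higher against both sets. These classes carry no test. With the consensus 5' splice site GTATGT, 47 of 174 were higher and 11 lower (median 0.17), and with another site 17 of 49 were higher and 3 lower (median 0.25). The 49 include HAC1 (CCGTGA), whose intron the spliceosome does not cut and which was not called. The 3 introns with T as their base 3, counted from the first base of the intron, were REC107 and CQD1 (both GTTCGT) and CMC4 (GTTTGT), and all 3 were higher against both sets. This class was not planned and its members were already among the largest increases, so it adds no support of its own. The 18 introns with GTACGT had 5 higher and 3 lower (median 0.11), and the 10 with GTAAGT 2 higher and 0 lower (median 0.21). With GTGAGT 2 of 2 were higher, with GTATGA 3 of 7 and with GTATGC 2 of 6, and 0 were lower in each. The 3 introns with T at base 3 were spliced less completely in wild type too, at a median premature share of 52.1% over the 3, against 4.25% over the 223.

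By thymines among bases 7 to 36, 24 of 64 introns with over 12 were higher (37.5%) and 2 lower, with a median of 0.25. Of the 64 introns with 10 to 12 thymines 15 were higher (23.4%) and 3 lower, with a median of 0.19. Of the 95 with at most 9 thymines 25 were higher (26.3%) and 9 lower, with a median of 0.14. Against WTb alone, 11 of 64, 6 of 64 and 8 of 95 were higher in the same order of classes. The median changes in that order were 0.21, 0.12 and 0.03 against WTb. Against WTa they were 0.23, 0.38 and 0.20, so there the class with 10 to 12 thymines was highest. Within this window MRK1 had 23 thymines and REC107 9. NOG2 with 24 and SEC14 with 22, the nearest to MRK1 in count, changed by 0.17 and -0.04 against pooled wild type. Length made little difference, with 31 of 107 introns of at least 200 bases higher and 33 of 116 shorter introns. Introns without the branch site TACTAAC had 16 higher of 36 (44.4%), yet 1 of these passed against both sets.

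**Figure D3:**
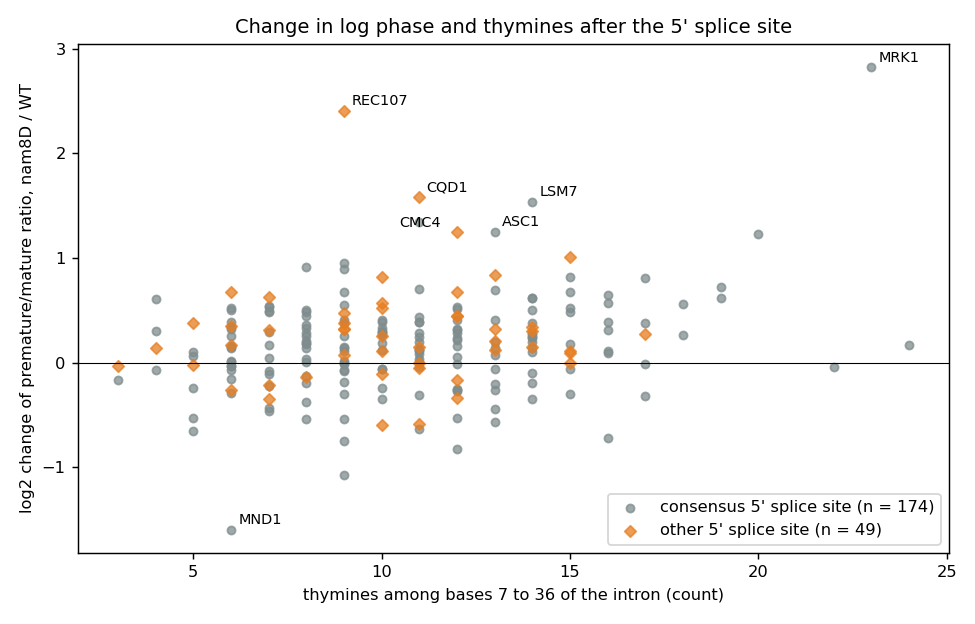
Log2 change of premature over mature, nam8D over wild type (y axis), against the number of thymines among bases 7 to 36 of the intron (x axis, count), for 174 introns with the consensus 5' splice site (grey circles) and 49 with another (orange diamonds). MRK1 lies at 23 thymines and 2.82, while NOG2 with 24 and SEC14 with 22 lie at 0.17 and -0.04. REC107, CQD1 and CMC4 lie among the introns with 9 to 12 thymines. The 49 include HAC1, whose intron the spliceosome does not cut.

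The parts of the ratio were tested separately as CPM. Of the 78 introns with a higher ratio, premature CPM was higher at 59 and lower at none, and mature CPM was lower at 25 and higher at 8. Over all introns premature CPM was higher at 97 (36.6%) and lower at 17 (6.42%), and mature CPM was higher at 57 (21.5%) and lower at 46 (17.4%). Among the 18 introns higher against both sets, premature CPM was higher at 16, and mature CPM was lower at 7 and higher at 2. For MRK1 premature CPM was 13.4, 18.4 and 14.7 in nam8D, against 9.53 and 10.6 in WTa and 4.53, 4.57 and 5.38 in WTb. Its mature CPM was 39.8, 49.0 and 32.2 in nam8D, against 214 and 184 in WTa and 83.4, 81.8 and 81.5 in WTb. Unspliced MRK1 RNA was higher and spliced MRK1 RNA lower than in either wild-type set.

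Abundance, the sum of both counts per library total, changed less clearly against WTb than against WTa. It is relative to the other primed targets, and a lower level per cell and fewer cells with the transcript cannot be told apart. By the same test 65 introns were higher (24.5%) and 38 lower (14.3%) in nam8D than in wild type. Against WTa 77 were higher (29.1%) and 76 lower (28.7%), and against WTb 26 were higher (9.81%) and 5 lower (1.89%), while WTb differed from WTa at 144 (54.3%), 55 higher (20.8%) and 89 lower (33.6%). Of the 65 higher, 48 passed against WTa alone, and of the 38 lower, 34 did. Both sets called 13 introns higher (4.91%) and 4 lower (1.51%). In 30 of the 65 (11.3% of those tested) all nam8D libraries lay above all wild-type libraries, and in 16 of the 38 (6.04%) all lay below. The 26 became 13 without nam8D replicate 3, 16 without WTb replicate 1 and 10 without WTb replicate 2, and the 5 became 2 without nam8D replicate 1 or 2, 0 without nam8D replicate 3 or WTb replicate 2, 3 without either WTa library and 1 without WTb replicate 3. With RLE factors or DESeq2 the pooled split was 46 higher and 53 or 58 lower. Against WTb the split was 15 higher and 11 lower with TMM factors, 12 and 11 with RLE factors and 16 and 19 with DESeq2.

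MRK1 abundance was 53.2, 67.4 and 46.9 CPM in nam8D, against 223 and 194 CPM in WTa and 88.0, 86.3 and 86.8 CPM in WTb. All nam8D libraries were lowest, and the log2 change of -1.27 ± 0.18 (SE, adjusted p 8.27e-06) was -1.91 against WTa and -0.64 against WTb (adjusted p 0.0350). HAC1, the transcription factor gene of the unfolded protein response, had 2032, 2413 and 2067 CPM in nam8D, against 819 and 926 CPM in WTa and 1579, 1660 and 1483 CPM in WTb. The nam8D libraries were highest, at 0.89 ± 0.07 (SE, adjusted p 1.64e-09) and 0.46 against WTb. YRA1 had 307, 298 and 303 CPM in nam8D, against 102 and 114 CPM in WTa and 217, 226 and 235 CPM in WTb. It rose by 0.96 ± 0.09 (SE, adjusted p 1.58e-08), with 0.42 against WTb, so its abundance differed from WTb where its splicing ratio did not pass.

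CNB1, the regulatory subunit of calcineurin, rose by 0.65 (adjusted p 4.60e-08; 0.32 against WTb). CMC4 rose by 0.56 (adjusted p 3.55e-05; 0.52 against WTb) in total, while its mature counts alone gave -0.19 (adjusted p 0.169). The other 9 introns higher against both sets, named after their values were seen, were in RPL24B, the vesicle SNARE gene BOS1, the transcription repressor gene NCB2, NCE101, the cytochrome oxidase gene COX5B, the mitochondrial ribosome gene MRPL44, DTD1, the mRNA-binding Puf protein gene MPT5 and the SUMO-conjugating enzyme gene UBC9. Their changes lay between 0.28 and 0.43. Beside MRK1, the 3 introns lower against both sets were in ribosomal protein genes, RPL19A (-0.37), RPS11B (-0.28) and RPL7A intron 1 (-0.19). Which copy such reads came from is uncertain. Of ribosomal protein introns, 12 of 58 were higher and 13 lower in the large subunit and 7 of 45 higher and 14 lower in the small subunit, against 24.5% higher and 14.3% lower of all introns. With RLE factors these became 5 and 16 in the large and 2 and 19 in the small subunit, against 46 and 53 of all 265.

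Other large abundance changes rested on WTa. The Sm protein gene SMD2 had 296, 318 and 306 CPM in nam8D, against 145 and 134 CPM in WTa and 293, 276 and 267 CPM in WTb (0.63 pooled, adjusted p 1.14e-06; 0.14 and adjusted p 0.309 against WTb). RPL25 had 878, 893 and 861 CPM in nam8D, against 1534 and 1606 CPM in WTa and 902, 938 and 1015 CPM in WTb (-0.48 pooled, adjusted p 2.97e-06; -0.12 against WTb). In both genes the nam8D libraries were near WTb and far from WTa. RPL7B intron 1 (0.57 pooled, 0.16 against WTb), RPL7A intron 2 (-0.29 pooled, -0.17 against WTb) and RPS22B intron 2 (-0.37 pooled, -0.15 against WTb) also passed when pooled and not against WTb. CQD1 passed when pooled (-0.31), and its change was nearly as large against WTb (-0.27, adjusted p 0.0652) as against WTa (-0.34). RNA processing and export genes had 6 higher and 0 lower of 12, against 24.5% higher and 14.3% lower of all introns. Their median was 0.23, or 0.13 against WTb, beside 0.04 over all introns. With RLE factors the count was the same and the median 0.18, and 2 of them, YRA1 and MPT5, passed against both sets.

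**Figure D4:**
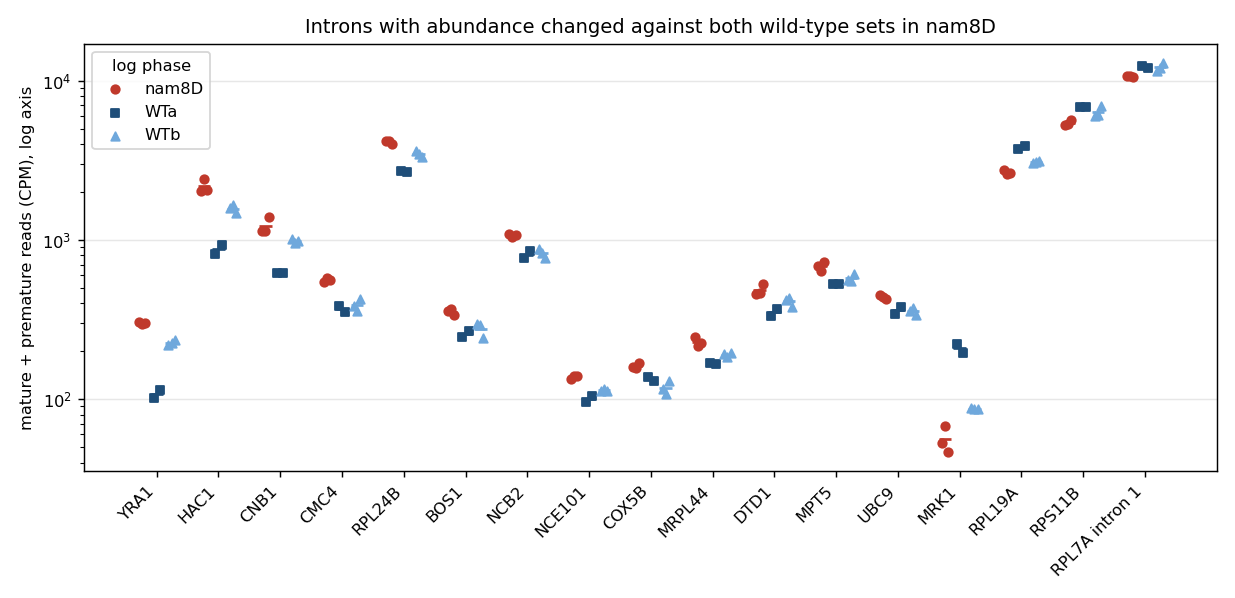
Mature plus premature reads as CPM (y axis, log scale) for the 17 introns whose abundance passed against both wild-type sets (x axis), with 1 point per library and a line at the group mean. The first 13 lie higher in nam8D (circles) than in WTa (squares) and WTb (triangles), and MRK1, RPL19A, RPS11B and RPL7A intron 1 lie lower.

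Where nam8D differed from the mud1D mutant, a mutant of another U1 protein gene, was tested directly in log phase. Premature over mature differed at 96 introns (36.2%), higher in nam8D at 29 (10.9%) and lower at 67 (25.3%). MRK1 (1.84, adjusted p 3.13e-08), CQD1 (1.24, adjusted p 3.01e-05) and DBP2 (1.04, adjusted p 1.49e-05) were higher in nam8D than in mud1D. REC107 (0.78, adjusted p 0.114) and LSM7 (0.24, adjusted p 0.359) did not pass against mud1D. CMC4 (-0.38, adjusted p 0.0114), GPI15 (-0.82, adjusted p 0.000448) and YOS1 intron 2 (-0.78, adjusted p 9.91e-05) were lower in nam8D than in mud1D. Of the 18 introns higher against both wild-type sets, 11 were higher and 3 lower than in mud1D. These 18 were chosen by high values in the same nam8D libraries, which favours higher calls here, so the count adds no support of its own. After centring, 119 introns were higher and 33 lower in nam8D than in mud1D. In abundance 2 introns differed (0.755%), named after their values were seen, RCF3 at 0.41 and MRK1 at -0.83 (adjusted p 0.0400 each).

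At 48 h, in other libraries of the same genotypes, 234 introns were higher (88.3%) and 3 lower (1.13%) in nam8D than in wild type, with a median change of 1.01; after centring these were 102 and 79. Of the 78 introns higher in log phase, 72 were higher at 48 h, with a median of 1.29 there. MRK1 had 2.76 at 48 h and 2.82 in log phase, and the difference between the time points was -0.06 (adjusted p 0.814). REC107 had 2.59 at 48 h and LSM7 1.85, and neither difference from log phase passed that test (adjusted p 0.718 and 0.249). CQD1 (3.94), ECM33 (3.76) and DBP2 (2.99) had larger changes at 48 h than in log phase, by 2.36, 3.05 and 2.37. In all, 209 introns (78.9%) differed between the time points, and the median difference over all introns was 0.81. RPS22B intron 2 went the other way, with 0.12 at 48 h and a difference of -0.97 (adjusted p 8.24e-05). Of the 19 introns lower in log phase, 12 were higher and 1 lower at 48 h.

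**Figure D5:**
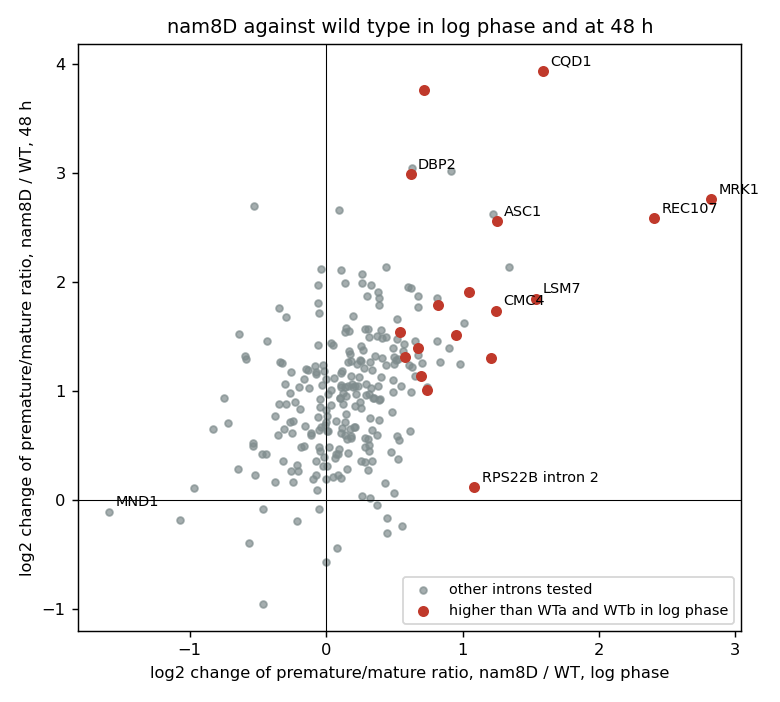
Log2 change of premature over mature, nam8D over wild type, at 48 h (y axis) against log phase (x axis), for 265 introns, with the 18 introns higher against both wild-type sets in log phase in red. Most points lie above 0 at 48 h, MRK1 and REC107 are high on both axes, and RPS22B intron 2 lies near 0 at 48 h.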

How the data were processed

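Multiplexed primer extension libraries were read as deposited tables of premature and mature read counts per intron, whole numbers with no normalization, per the file headers. Per the submitters' processing notes the build was R64 and the tools included STAR 2.7.2b, fastp 0.20.0 and FastQC, with no roles given. Groups came from the labels. The members and lists were chosen with earlier results of these data known.

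Splicing was tested with edgeR 4.0.16 (quasi-likelihood, two-sided) in R 4.3.3 on both counts, with each library as a factor and each group's premature counts given an effect of their own, in 1 fit of 23 libraries in 8 groups. Introns listed in all libraries with a mean count of at least 20 were tested, and p-values were adjusted by Benjamini-Hochberg over 265 introns at a threshold of 0.05. Abundance was tested on the summed counts with library totals as the scaling. The centred fit used limma 3.58.1 on log2 odds with a pseudocount of 0.5, and DESeq2 1.42.0 was an alternative. Shares were compared by exact permutation of libraries (scipy 1.17.1, Python 3.11.15, with numpy 2.4.6, pandas 2.3.3 and matplotlib 3.10.9). The splicing fit was tested on simulated data. Other scalings, count minimums, a replicate block, strain name, each wild-type set alone and leaving out each library were tried.

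Named introns were the 10 largest increases and 10 largest decreases that passed with no overlap between nam8D and wild-type libraries (5 decreases met this), the intron with the smallest p in every list, and preset meiotic, self-regulating and control introns. For abundance they were the 6 largest changes each way. One intron that this rule names is not reported here. Intron sequences come from RefSeq R64, where 240 of 284 introns had 1 annotated match. For genes with 2 introns the order in the tables is not assured, so no coordinates are given.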

Additional observations from a re-analysis of the deposited data

Results flagged for a closer look

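The wild-type sets differed from each other at many introns. WTb and WTa differed in premature over mature at 126 introns and in abundance at 144, by edgeR's quasi-likelihood test in the same fit, and the same difference is that between the nam8D effects against the 2 sets. As log2 of WTb over WTa, the premature to mature ratio was higher in WTb at YRA1 (2.16), COF1 (1.32), RRT8 (1.20), ASC1 (1.06), LSM7 (1.03), CMC4 (0.72), REC107 (0.69), HMRA1 intron 1 (0.55), RPS23A (0.53), RPS22B intron 2 (0.45) and SUS1 intron 1 (0.44). It was lower in WTb at TAD3 intron 1 (-1.47), MND1 (-1.44), GIM5 (-0.65) and RPS14B (-0.34).

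Abundance was higher in WTb than in WTa at YRA1 (1.07), SMD2 (0.99), HAC1 (0.85), RPL7B intron 1 (0.83), DBP2 (0.70), CNB1 (0.67), ACT1 (0.46), RPL30 (0.40) and RPS14B (0.22). It was lower in WTb at PCH2 (-1.29), MRK1 (-1.26), RPL25 (-0.72), REC107 (-0.63), GCR1 (-0.46), RPS22B intron 2 (-0.45), RPL19A (-0.30) and RPL7A intron 2 (-0.25).

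The nam8D effect on premature over mature differed between 48 h and log phase at 209 introns by the interaction term of that fit. As the log2 effect at 48 h minus that in log phase, it was larger at 48 h for DBP2 (2.37), CQD1 (2.36), ACT1 (2.04), TEF4 (1.49), MND1 (1.48), ASC1 (1.31), RPL30 (1.26), TAD3 intron 1 (1.07), GCR1 (0.97), SEC17 (0.93), GIM5 (0.88), SUS1 intron 1 (0.86), ERD2 (0.86), YRA1 (0.79), VMA9 intron 2 (0.73), RRT8 (0.61), RPS23A (0.57), CMC4 (0.49), COF1 (0.43) and UBC12 (0.42). It was smaller at 48 h for RPS22B intron 2 (-0.97) and RPS14B (-0.52). Over all introns the median difference was 0.81. Of the introns with a larger effect at 48 h, YRA1 and those named after it lay below that median. After centring, the difference passed as higher at 49 introns and lower at 61.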

How the results depend on the processing

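Of the named splicing values, 306 of 329 under other settings and 223 of 240 with 1 library left out kept their direction and their side of the threshold, and of the named abundance values 145 of 171 and 152 of 152. Centring each library on its median intron gave 36 lower introns against pooled wild type, 54 against WTa and 12 against WTb, 119 higher and 33 lower against mud1D, 102 and 79 at 48 h, and 49 and 61 for the difference between time points. With strain name as a term, 10 introns were lower against pooled wild type, 4 against WTb and 40 against mud1D, 24 were lower in WTb than in WTa, and ACT1 had 0.0867. With only the 8 log-phase libraries, 50 introns were higher and 9 lower in splicing against WTb, and 63 and 12 in abundance. DESeq2 gave 1 intron lower in splicing against WTb, 58 lower in abundance against pooled wild type, and 16 higher and 19 lower in abundance against WTb. For abundance against WTb, TMM factors gave 15 higher and 11 lower and RLE factors 12 and 11. The cause of these changes was not tested.

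With WTa alone as wild type, 35 introns were lower in splicing and 76 in abundance, the pooled premature share differed by 0.574 percentage points, and RPS14B had -0.0925 in splicing and 0.00508 in abundance. With WTb alone, 31 were higher and 2 lower in splicing and 26 and 5 in abundance. In splicing HAC1 then had -0.32 and ACT1 0.0790, and in abundance PCH2 had 0.447, RPL30 -0.135, REC107 0.0554 and GCR1 0.0686. With mature counts alone CMC4 abundance had -0.19.

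Leaving out 1 library at a time gave 62 to 75 higher and 12 to 20 lower introns in splicing against pooled wild type, 22 to 32 and 0 to 4 against WTb, and 10 to 29 higher and 0 to 5 lower in abundance against WTb. HAC1 lay between -0.0848 and 0.611 and ACT1 between -0.132 and 0.00969. The difference in share lay between 0.0796 and 0.313 points for the median intron and between 0.348 and 0.446 for the pooled share.

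A replicate block gave 88 higher and 21 lower introns in splicing and 66 and 39 in abundance against pooled wild type, and RPL30 passed in splicing with it (0.31, adjusted p 0.0384). Whether the replicate numbers pair the libraries could not be decided. Deviations of same-numbered nam8D and WTb libraries from their group means correlated over introns at -0.259, -0.111 and -0.112. Those of nam8D and WTa correlated at -0.0073 and 0.0362, and not every library correlated best with its own number. With so few libraries per group mean, such correlations cannot exclude a pairing. The 2 WTa libraries and the few mature counts of REC107, PCH2 and HAC1 limit precision.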
